A study of Danio rerio with 6 samples.

Results

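The genes egr1, egr2a, egr2b, egr3, ier2, ier5, ier5l, dusp1, nr4a1 and btg2 are immediate early genes outside the Jun and Fos families that form the AP-1 factor. Immediate early genes are those that cells transcribe within minutes of a stimulus, without making new protein first. These 10 genes were chosen by symbol, and all were found among the 29095 gene symbols of each count table and passed the filter on low counts, which kept 15770 genes. In lymphocytes such genes are switched on by antigen receptor, cytokine and stress signals, largely through the ERK kinase cascade and the serum response factor SRF, and their products then adjust transcription, kinase activity and mRNA decay. Several of the proteins act as brakes: dusp1 removes phosphate from MAP kinases, and btg2 restrains proliferation.

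The samples are acute lymphoblastic leukaemias, cancers of lymphocyte precursors, grown in zebrafish of strain CG2. The 3 tumours, numbered 1404, 1279 and 1314, were each sorted by flow cytometry into a side population (SP), by convention the cells that pump out a DNA-binding dye, and a non-side population (nonSP) that retains it. One RNA library was made per fraction, which gives 3 pairs, with n = 3 in each fraction and no treatment in either. The sources used here do not give the age of the fish, the driver of the leukaemia or how the side population gate was set. Nothing in them states that the tumours arose independently, so p-values concern these 3 pairs alone. For most genes the spread behind a p-value or SE is largely one shared by all genes, not that of the gene's own 3 ratios.

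Libraries held 30213658 to 62398607 counts, and the 10 genes together took 0.0634% to 0.518% of a library. The lymphoid gene rag2, of the recombinase that assembles antigen receptor genes, was counted 2085 to 4484 times in every library. Levels below are in CPM, the count relative to library size, scaled by TMM factors that are meant to correct for differences in composition. They are listed for tumours 1404, 1279 and 1314 in that order. Changes are log2 fold changes of SP over nonSP from the quasi-likelihood test of edgeR, blocked by tumour, given ± SE with n = 3 pairs. A gene is called at a Benjamini-Hochberg adjusted p below 0.05 over all 15770 genes tested.

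The immediate early genes did not move as a block between the fractions. The nuclear receptor gene nr4a1 and the phosphatase gene dusp1 rose in SP, by 2.81-fold and 2.08-fold. All 3 ier genes, btg2 and egr2b fell in SP, with ier5l 9.06-fold lower, ier2 5.75-fold lower and ier5 4.11-fold lower. The remaining members, egr1, egr3 and egr2a, did not pass the test. In bulk RNA of sorted cells, fewer cells that express a gene and less RNA of it per cell cannot be told apart.

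Of the 10 genes, 2 were called higher and 5 lower. Over all tested genes 22.4% were called, 13% as higher and 9.4% as lower. The median log2 fold change was -0.79 over the 10 genes and 0.09 over all tested genes. With library totals in place of TMM factors these medians were 0.25 and 1.15, so the sign for the 10 genes depends on the scaling. The members nr4a1, dusp1 and egr3 had a higher level in SP than in nonSP of the same tumour in all 3 tumours, a pattern that 31.2% of tested genes show, and 5 members were lower in all 3, a pattern that 24.1% show. For none of the 10 did the 3 SP values lie wholly above or wholly below the 3 nonSP values, which they did for 8.64% and 6.6% of tested genes, so the differences are seen within a tumour and not across tumours.

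**Figure D1:**
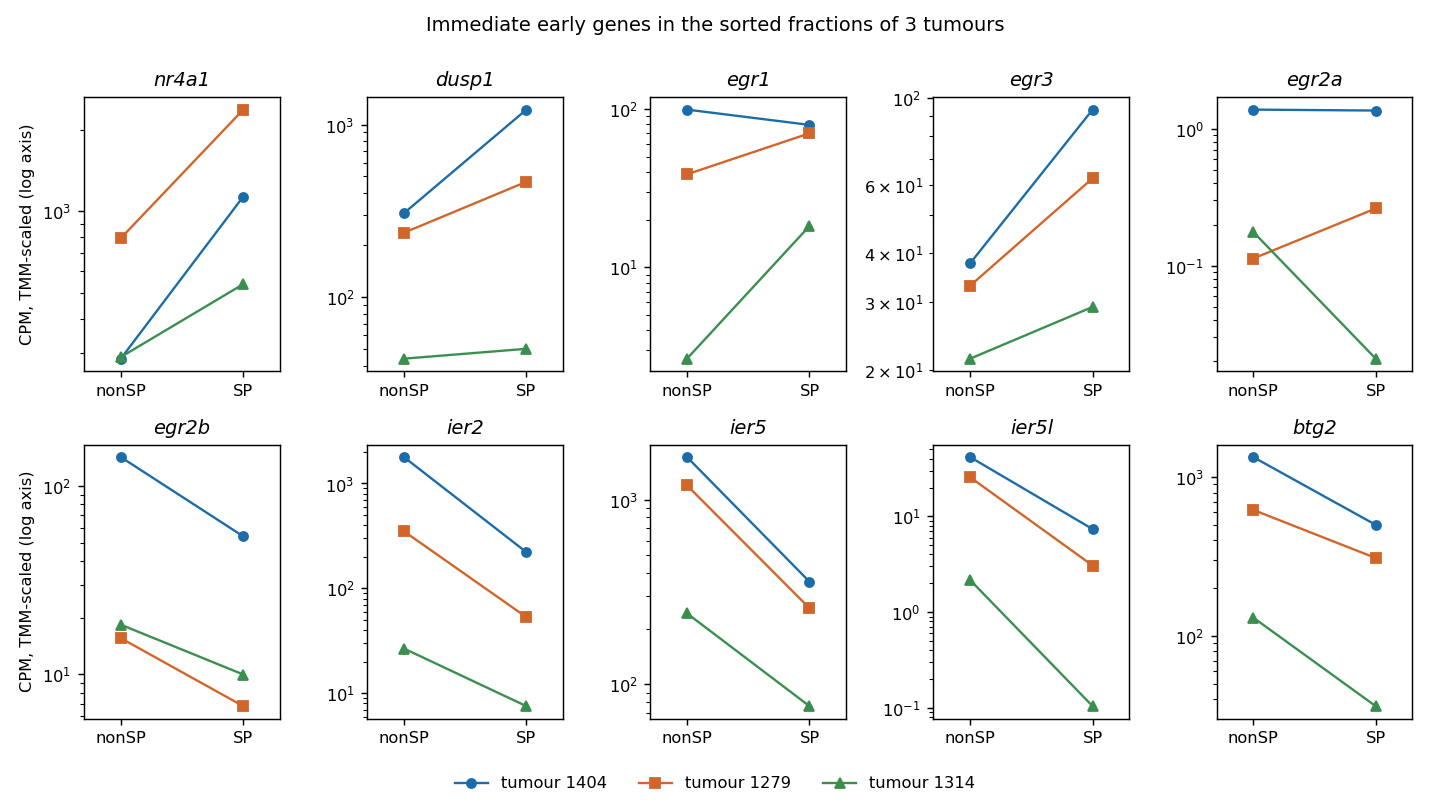
Levels of the 10 genes in TMM-scaled CPM (log axis) in nonSP and SP, with a line joining the fractions of each tumour. Lines for nr4a1, dusp1 and egr3 slope up in all 3 tumours, and those for egr2b, ier2, ier5, ier5l and btg2 slope down in all 3, while the tumours keep different starting levels.

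The gene nr4a1 encodes an orphan nuclear receptor, also called Nur77, that is induced by antigen receptor signals in mammalian lymphocytes. It stood at 285, 795 and 289 CPM in nonSP and at 1133, 2375 and 538 CPM in SP. Every SP library was above its nonSP partner, although SP of tumour 1314 was below nonSP of tumour 1279. In edgeR it rose by 1.49 ± 0.30 on the log2 scale (adjusted p = 0.0015), with log2 ratios of 1.99, 1.58 and 0.89 in the 3 tumours. This call held when any tumour was left out, at 1.12 to 1.79.

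The gene dusp1 encodes a dual-specificity phosphatase that inactivates the MAP kinases p38, JNK and ERK. Its level was 306, 236 and 44 CPM in nonSP and 1220, 466 and 50.2 CPM in SP. Tumour 1404 showed the widest gap and tumour 1314 almost none, with log2 ratios of 1.99, 0.98 and 0.19. The log2 fold change was 1.05 ± 0.37 (edgeR adjusted p = 0.0413). It did not pass without tumour 1404 (0.47, edgeR adjusted p = 0.382) or without tumour 1279 (1.11, 0.107), nor with DESeq2's size factors in edgeR (0.97, 0.0731) or in DESeq2 (0.97, 0.066).

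The egr genes encode zinc finger transcription factors that bind GC-rich promoter sites. Among them egr2b, known in zebrafish as krox20 for its part in hindbrain patterning, was the only egr member called. It measured 142, 15.6 and 18.4 CPM in nonSP and 54, 6.78 and 9.99 CPM in SP. Both fractions of tumour 1404 were far above those of the other tumours. SP was lower in each pair, with close log2 ratios of -1.40, -1.19 and -0.88, and the log2 fold change was -1.16 ± 0.37 (edgeR adjusted p = 0.027). The call of egr2b ended without tumour 1279 (-1.12, edgeR adjusted p = 0.145) and without tumour 1314 (-1.30, 0.102), and with library totals in place of TMM factors it was -0.09.

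Its relative egr3 stood at 37.6, 32.9 and 21.4 CPM in nonSP and at 93.5, 62.3 and 29.1 CPM in SP. Each SP library exceeded its partner, most in tumour 1404. The log2 fold change of 0.89 ± 0.38 missed the threshold (edgeR adjusted p = 0.0865, 95% interval 0.12 to 1.67), although it passed with library totals (1.97).

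The levels of egr1, the founding gene of the family, went opposite ways in the tumours. They were 99, 38.6 and 2.65 CPM in nonSP and 79.3, 70.17 and 18.2 CPM in SP. SP was below nonSP in tumour 1404 and above it in the other tumours, with log2 ratios of -0.32, 0.86 and 2.77. The log2 fold change was 1.07 ± 0.48 (edgeR adjusted p = 0.11), with an SD of the 3 ratios of 1.56, the widest among the 10 genes. Without tumour 1404 egr1 passed at 1.68 (edgeR adjusted p = 0.000909), although the remaining ratios of 0.86 and 2.77 lay far apart. Without tumour 1314 it stood at 0.27. It also passed with limma voom (1.19, 0.032), without a filter (1.14, 0.0413) and with library totals (2.16).

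The remaining egr member, egr2a, was scarce. It had 59, 2 and 8 counts in nonSP and 92, 17 and 2 counts in SP, too few in tumours 1279 and 1314 to show a difference. Its log2 fold change was -0.42 ± 0.71 (edgeR adjusted p = 0.712, 95% interval -1.88 to 1.05), with ratios of -0.02, 1 and -1.90, and its sign turned with library totals (0.58) and without tumour 1314 (0.35). In the RefSeq gene table (assembly GRCz12tu, not the build of the files) egr2a overlaps znf365, which had 2 to 20 counts, so that reads of either gene may count for the other. Outside the members, the row EGR4 had 356, 22 and 253 counts in nonSP and 388, 107 and 315 in SP. Its log2 fold change was -0.34 ± 0.42 (edgeR adjusted p = 0.593), with ratios of -0.54, 0.40 and -0.76. The row EGR2 (3 of 3) had 0 counts in every library.

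**Figure D2:**
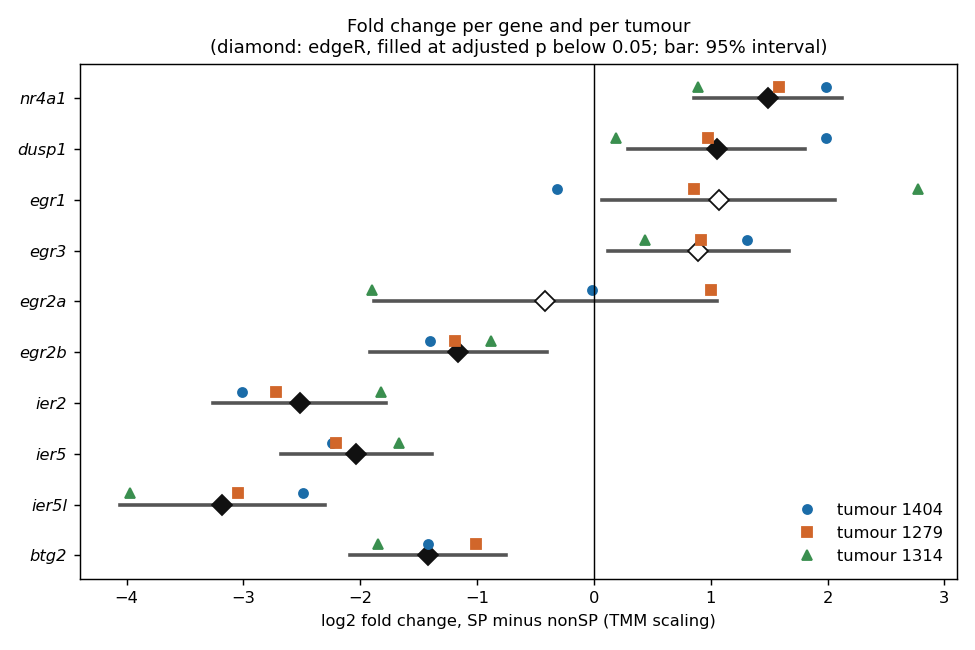
Log2 fold change of SP over nonSP for each gene, with the edgeR estimate as a diamond (filled at an adjusted p below 0.05), its 95% interval as a bar and the ratio of each tumour as a coloured symbol. The 3 ratios of ier5 lie between -2.24 and -1.67, while those of egr1 spread from -0.32 to 2.77.

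The 3 ier genes showed the largest differences of the 10. They encode proteins with a shared N-terminal region and no known DNA-binding domain, and in mammalian cells IER5 takes part in activating the heat shock factor HSF1. The gene ier2 measured 1784, 350.1 and 26.7 CPM in nonSP and 221, 53.2 and 7.53 CPM in SP. Tumour 1314 was the lowest in each fraction. In edgeR ier2 fell by 2.52 ± 0.36 on the log2 scale (adjusted p = 4.5e-05), with ratios of -3.01, -2.72 and -1.82.

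Levels of ier5 were 1696, 1192 and 242 CPM in nonSP and 359, 258 and 76.2 CPM in SP. The SP values of tumours 1404 and 1279 were above nonSP of tumour 1314, and this is the only overlap of the groups. Its log2 fold change was -2.04 ± 0.31 (edgeR adjusted p = 9.3e-05), and the ratios of -2.24, -2.21 and -1.67 had an SD of 0.32.

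The less abundantly counted ier5l had 1770, 454 and 98 counts in nonSP and 497, 199 and 10 counts in SP, or 41.6, 25.6 and 2.16 CPM against 7.37, 3.07 and 0.104 CPM. The value in SP of tumour 1314 rests on those 10 counts. For ier5l edgeR gave -3.18 ± 0.43 (log2, adjusted p = 3.62e-05), with ratios of -2.49, -3.05 and -3.97. All 3 ier calls held when any tumour was left out and with library totals, where ier2 was -1.45, ier5 -0.96 and ier5l -2.12.

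A second row, named IER2 (1 of 2) in the files, had 15574, 1226 and 677 counts in nonSP and 8999, 3707 and 808 in SP. Its log2 fold change was -0.85 ± 0.39 (edgeR adjusted p = 0.113), with ratios of -1.46, -0.28 and -0.82, lower in SP in each tumour. With library totals it was 0.22, with ratios of -0.63, 1.02 and 0.28. The row was looked up after the values of ier2 were known, and the sources used here do not say how reads that fit both rows were counted.

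The gene btg2 encodes a small antiproliferative protein that recruits the CCR4-NOT deadenylase to mRNA and is a target of p53 in mammals. It measured 1337, 622 and 131 CPM in nonSP and 501, 309.9 and 36.2 CPM in SP. SP was lower in every pair, and SP of tumours 1404 and 1279 was above nonSP of tumour 1314. The log2 ratios were -1.42, -1.01 and -1.85, and the log2 fold change was -1.42 ± 0.33 (edgeR adjusted p = 0.00342). Without tumour 1314 it did not pass (-1.21, edgeR adjusted p = 0.0981), and with library totals it was -0.35 (0.301) and the ratio of tumour 1279 turned to 0.29.

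The scaling matters for these directions. In SP the TMM factors ran from 1.206 to 1.757 and in nonSP from 0.587 to 0.817. The 50 genes with the most counts took 36% to 36.5% of SP libraries and 45.8% to 52.4% of nonSP libraries. Genes detected numbered 20670 to 22157 in SP and 17414 to 20713 in nonSP, with fewer in nonSP of each tumour. The part of these differences between the fractions in the factors was not tested. Library totals in their place raised the median over all tested genes by 1.07 on the log2 scale. With library totals 52.6% of tested genes were called, 50.8% higher and 1.76% lower, and among the 10 genes nr4a1, dusp1, egr1 and egr3 were then called higher and the 3 ier genes lower. The split of the members into genes that were higher and genes that were lower was therefore also read as ratios of raw counts within a library, which no scaling changes. The pairs were chosen after the values were seen and are given as descriptions. The ratio of a member higher in SP in every tumour to a member lower in every tumour was bound to rise in SP. Such a ratio does not show which gene of the pair moved, and library totals left btg2 (-0.35) and egr2b (-0.09) uncalled.

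The count of ier2 relative to nr4a1 was 6.26, 0.44 and 0.0923 in nonSP and 0.195, 0.0224 and 0.014 in SP. The ratio was thus 32-fold, 19.7-fold and 6.59-fold lower in SP. In tumour 1404 ier2 had more counts than nr4a1 in nonSP and fewer in SP.

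The count of ier5 relative to dusp1 was nearly the same in the 3 nonSP libraries, at 5.54, 5.05 and 5.50, and was 0.294, 0.554 and 1.52 in SP. It was 18.8-fold, 9.12-fold and 3.62-fold lower in SP. The tumours that matched in nonSP therefore separated in SP, with tumour 1404 changed most.

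The count of nr4a1 relative to btg2 was 0.213, 1.28 and 2.21 in nonSP and 2.26, 7.66 and 14.8 in SP. Here the mean log2 change was 2.91 with an SD of 0.44 over the 3 pairs. Within the egr family, egr2b relative to egr3 was 6.55-fold, 4.34-fold and 2.5-fold lower in SP.

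Ratios between genes called in the same direction varied from pair to pair. The count of dusp1 relative to nr4a1 was 1.07, 0.297 and 0.152 in nonSP and 1.08, 0.196 and 0.0933 in SP, a mean log2 change of -0.43 (SD 0.38). The count of ier2 relative to ier5 was 1.05, 0.294 and 0.11 in nonSP and 0.616, 0.206 and 0.0989 in SP, a mean log2 change of -0.48 (SD 0.31). The order of the tumours in both ratios was the same in each fraction. Pairs with ier5l moved more, with ier5l 6.52-fold lower relative to ier5, 5.85-fold lower relative to ier2 and 11.3-fold lower relative to egr2b in SP of tumour 1314, which rests on the 10 counts of ier5l there. The count of ier5l relative to btg2 was 2.12-fold, 4.16-fold and 5.74-fold lower in SP, and egr2b relative to ier2 was 3.06-fold, 2.87-fold and 1.93-fold higher.

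**Figure D3:**
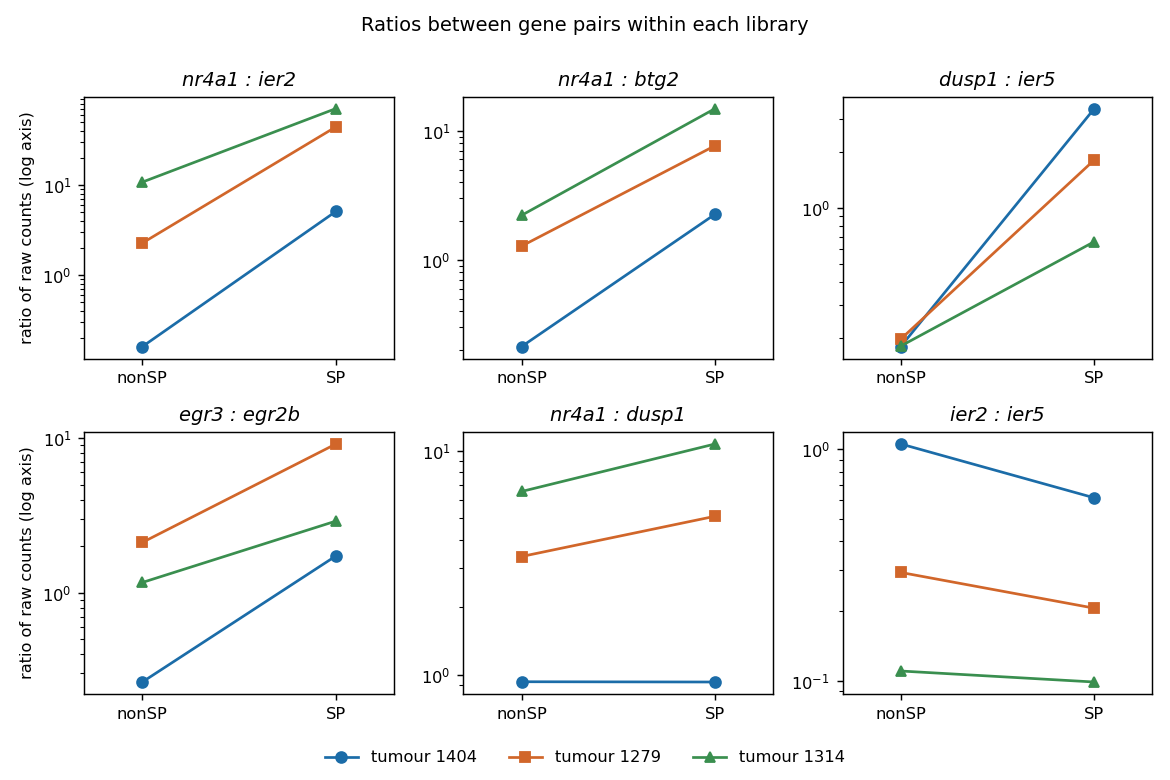
Ratios of the raw counts of gene pairs within each library (log axis), nonSP on the left and SP on the right, with a line for each tumour. The 4 pairs that join a gene with higher levels in SP to a gene with lower levels all climb, as such pairs must, though egr3 was not called. The 2 pairs plotted within a direction (nr4a1 with dusp1, ier2 with ier5) change by less than 1.8-fold in any tumour. Pairs within a direction that are not plotted changed more, such as ier5 with ier5l by 6.52-fold in tumour 1314.

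Levels also differed between the tumours. Across the 3 nonSP libraries the highest level of ier2 was 66.8 times the lowest, that of egr1 37.4 times, that of ier5l 19.2 times and that of btg2 10.2 times. The range was 2.79-fold for nr4a1 and 1.76-fold for egr3, the narrowest of the 10. In SP the ranges were 29.4-fold for ier2, 24.3-fold for dusp1 and 4.42-fold for nr4a1. Tumour 1314 had the lowest level of ier2, ier5, ier5l, btg2, dusp1, egr1 and egr3 in both fractions.

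Without the tumour block edgeR called 0 of the 10 genes and 0 of all genes, with 2 of the 10 (1 higher and 1 lower) at an unadjusted p below 0.05. The log2 fold changes of nr4a1 (1.56), ier2 (-2.94) and ier5l (-2.72) were of similar size in that fit. The calls thus concern paired fractions and not the groups of 3 libraries as such.

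Over the 6 libraries, which share tumour and depth, log2 CPM of ier2, ier5, ier5l and btg2 followed each other closely, with Pearson's r from 0.93 to 0.98. The other member called lower, egr2b, had r of 0.63 to 0.78 with these genes. The r of nr4a1 with ier2, ier5, ier5l and btg2 lay between -0.19 and 0.06. That of dusp1, the other member called higher, with the same genes was 0.45 to 0.71. The r of dusp1 with egr3 was 0.93, and that of egr2b with nr4a1 was -0.50. These values describe 6 libraries in which tumour sets much of the level.

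Relatives of the members were compared by family. The third receptor of the NR4A family, nr4a3, rose alongside nr4a1. It measured 55.4, 262 and 21 CPM in nonSP and 571, 629 and 79.5 CPM in SP. Its log2 fold change was 2.17 ± 0.42 (edgeR adjusted p = 0.000875). The paralogue nr4a2b went the other way, with 42, 219 and 44.8 CPM in nonSP and 31.1, 109 and 9.55 CPM in SP.

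The log2 fold change of nr4a2b was -1.21 ± 0.41 (edgeR adjusted p = 0.0364). Its call ended without tumour 1279 (-1.31, edgeR adjusted p = 0.105), without tumour 1314 (-0.72, 0.439) and with library totals (-0.14). In ratios within a library, nr4a1 relative to nr4a2b was 5.37-fold, 5.98-fold and 8.72-fold higher in SP. The last paralogue, nr4a2a, had at most 3 counts in any library.

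Among 8 other tested dual-specificity phosphatases of MAP kinases, 2 rose and 0 fell, against 7 and 0 under library totals. Over all tested genes 13% rose and 9.4% fell, against 50.8% and 1.76% under library totals. The gene dusp2, a phosphatase first known from activated lymphocytes, measured 20.2, 20.5 and 5.69 CPM in nonSP and 247, 54.5 and 26.3 CPM in SP, a log2 fold change of 2.4 ± 0.45 (edgeR adjusted p = 0.000669). All 3 SP values of dusp2 lay above all 3 nonSP values, and its call, like that of nr4a3, held when any tumour was left out and under each scaling. The ERK phosphatase gene dusp5 changed by 1.25 ± 0.42 (edgeR adjusted p = 0.0327), a call that ended without tumour 1404 (0.57, 0.346), without tumour 1314 (1.41, 0.0849) and with DESeq2's size factors in edgeR (1.17, 0.0539).

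The gene dusp6, which encodes the cytoplasmic phosphatase of ERK and is a common readout of ERK activity, did not pass at -0.26 ± 0.35 (edgeR adjusted p = 0.627), and stood at 0.81 with library totals, where it passed. Its ratios were -0.30, 0.14 and -0.63. Relative to dusp6, the count of dusp1 was 4.91-fold, 1.79-fold and 1.77-fold higher in SP.

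Of 5 tested relatives of btg2, 1 fell and 0 rose, beside 9.4% and 13% of all tested genes. With library totals 0 fell and 4 rose, beside 1.76% and 50.8% of all tested genes. The relative that fell with TMM factors was tob1b, of the same antiproliferative family, at -1.76 ± 0.45 (edgeR adjusted p = 0.00728). Its ratios were -0.75, -1.44 and -3.17. The call of tob1b ended without tumour 1314 (-1.09, edgeR adjusted p = 0.191) and with library totals (-0.69). The closest relative by name, btg1, stood at 0.66 ± 0.31 (edgeR adjusted p = 0.119) and passed with library totals (1.74). The count of btg1 relative to btg2 was 4.54-fold, 3.03-fold and 5.57-fold higher in SP.

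The NAB proteins bind EGR factors and repress their activity. All 3 tested nab genes had higher levels in SP in each tumour, a pattern that 31.2% of tested genes show. Of the 3, 2 passed (3 with library totals), beside 13% of all tested genes called higher (50.8% with library totals). The gene nab1a changed by 1.54 ± 0.40 (edgeR adjusted p = 0.0085) and nab1b by 1.28 ± 0.45 (0.0396), while nab2 stood at 0.79 ± 0.35 (0.108). The call of nab1a ended without tumour 1314 (1.26, edgeR adjusted p = 0.101), and that of nab1b without tumour 1404 (0.64, 0.39) or tumour 1314 (1.43, 0.0873), with DESeq2's size factors in edgeR (1.2, 0.059) and with upper-quartile factors (1.22, 0.0531).

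**Figure D4:**
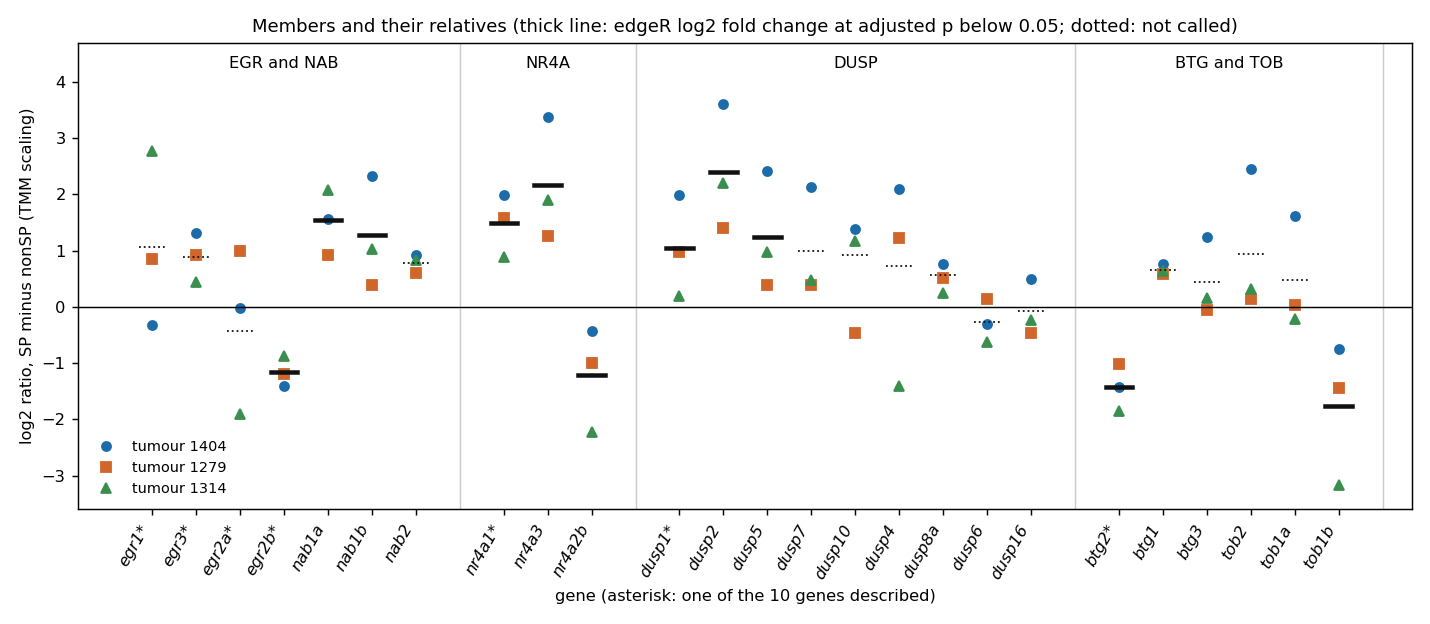
Log2 ratios of SP over nonSP for tested members (asterisks) and relatives, by family, with a symbol for each tumour and a horizontal line for the edgeR estimate, thick at an adjusted p below 0.05 and dotted otherwise. In the NR4A family nr4a1 and nr4a3 lie above 0 and nr4a2b below it in all 3 tumours, and btg2 and tob1b lie below 0 in all 3.

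Of 51 other tested immediate early genes, 10 rose and 5 fell, beside 13% higher and 9.4% lower over all tested genes. Their median log2 fold change was 0.18, against 0.09 over all tested genes. Those with the lowest p were cyr61l1, of the CCN family of matrix proteins (2.96 ± 0.47), the circadian gene per1b (2.17 ± 0.42), the stress kinase gene plk3 (1.96 ± 0.39) and gadd45ga, a growth arrest gene (-1.92 ± 0.37). These 4 calls held when any tumour was left out. The nonSP levels of cyr61l1 rest on 112, 7 and 8 counts in tumours 1404, 1279 and 1314. Under library totals 30 genes were higher and 1, gadd45ga, lower, beside 50.8% and 1.76% of all tested genes.

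Of 13 tested AP-1 genes, 2 rose and 3 fell, beside 13% higher and 9.4% lower over all tested genes. Library totals gave 6 higher and 1 lower, beside 50.8% and 1.76% of all tested genes. The falling genes were jun (-2.64 ± 0.30), junba (-1.59 ± 0.34) and junbb (-1.56 ± 0.35), and those that rose were jdp2a (2.45 ± 0.55) and fosl2 (1.58 ± 0.39), the last named after its value was seen. The nonSP levels of jdp2a rest on 78, 10 and 2 counts in tumours 1404, 1279 and 1314. With library totals junba (-0.52) and junbb (-0.49) no longer passed. Each of the jun genes named was lower in SP in all 3 tumours.

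The signalling steps that lead to immediate early transcription were read from lists of their genes, beside the 22.4% of all tested genes that were called. Of all tested genes 13% rose and 9.4% fell, against 50.8% and 1.76% under library totals. Of 31 tested genes of the ERK cascade, 6 rose and 1 fell (median 0.29), against 19 and 0 under library totals, and the 7 calls are a share near that of all tested genes. Those that rose included the kinase genes mknk2b (1.61 ± 0.27), which acts below ERK, and map2k1 (2.05 ± 0.57), which encodes the kinase of ERK, the scaffold gene ksr1b (1.72 ± 0.39) and the GTPase gene hrasa (1.48 ± 0.39). The gene that fell, named after its value was seen, was the adaptor gene shc1 (-1.16 ± 0.37), which was -0.08 with library totals. Without tumour 1404 hrasa did not pass (0.94, edgeR adjusted p = 0.0855), nor did map2k1 without tumour 1314 (1.43, 0.168).

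Of 20 tested genes of SRF, its partners and the CREB group, 1 rose and 1 fell (median 0.49), against 13 and 0 under library totals. The shares over all tested genes were 13% higher and 9.4% lower, against 50.8% and 1.76% under library totals. The gene srfa, of serum response factor, stood at 1.5 ± 0.42 (edgeR adjusted p = 0.0137) and did not pass without tumour 1404 (0.88, 0.178). The CREB coactivator gene crtc1a changed by -1.49 ± 0.40 (edgeR adjusted p = 0.00985), a call that ended without tumour 1279 (-1.34, 0.0883) and with library totals (-0.41). The genes crebbpb (1.09 ± 0.40) and elk1 (1.01 ± 0.38) stood just short of the threshold (edgeR adjusted p = 0.0511 and 0.0562).

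Both lists that follow stand beside 13% higher and 9.4% lower over all tested genes, or 50.8% and 1.76% under library totals. Of 12 tested ERK feedback inhibitors, 1 rose, spred2a (1.76 ± 0.45), and 1 fell, spred1 (-1.54 ± 0.43), against 5 and 0 under library totals. Neither call was independent of single tumours: spred2a stood at 1.07 without tumour 1404 (edgeR adjusted p = 0.0951), and spred1 at -1.29 without tumour 1279 (0.174) and -1.46 without tumour 1314 (0.0702). Of 14 tested p38 and JNK pathway kinases, 2 rose and 1 fell, against 8 and 0 under library totals. The 3 called genes were mapk14b (1.18 ± 0.41) and mapk14a (1.07 ± 0.38), which encode p38 alpha kinases, a substrate of the dusp1 phosphatase, and mapk13 (-1.68 ± 0.49). All 3 calls ended when tumour 1279 was left out, at 1.12, 1.17 and -1.88. They also ended for mapk14b (0.63) and mapk14a (0.57) without tumour 1404, for mapk14a (1.40) and mapk13 (-1.74) without tumour 1314, and for mapk13 (-0.60) with library totals, and DESeq2's size factors in edgeR ended those of mapk14b (1.09) and mapk14a (0.98). Upper-quartile factors (1.01) and DESeq2 (0.99) ended that of mapk14a too.

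Most of the tested heat shock genes were called higher in SP. Of 19 tested heat shock genes, 11 rose and 2 fell, beside 13% higher and 9.4% lower over all tested genes. Their median log2 fold change was 1.44. Under library totals 14 were higher and 0 lower, beside 50.8% and 1.76% of all tested genes. The gene hsp70l rose by 2.53 ± 0.36 (edgeR adjusted p = 4.52e-05), hsp90aa1.2 by 1.96 ± 0.30, dnajb1b by 1.92 ± 0.30 and hsp70.3 by 2.19. The gene hsf1, of heat shock factor, rose by 1.28 ± 0.37, and those that fell were hsp90ab1 (-1.07) and the mitochondrial chaperonin gene hspe1 (-1.77). These 3 genes were named after their values were seen. Reads of near-identical hsp70 copies may be split between them. The part of the heat shock genes in the differences of the immediate early genes was not tested.

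Of 19 tested genes of mRNA decay, 1 rose and 2 fell, against 9 and 0 under library totals. The list includes subunits of the CCR4-NOT complex through which btg2 acts. Over all tested genes 13% rose and 9.4% fell, against 50.8% and 1.76% under library totals. The deadenylase gene cnot6a changed by 1.59 ± 0.40, its relative cnot6l by -1.10 ± 0.36 and the poly(A)-binding protein gene pabpc1a by -1.22 ± 0.24. The call of cnot6l ended without tumour 1279 (-1.09, edgeR adjusted p = 0.147) or tumour 1314 (-1, 0.198), and with library totals cnot6l was -0.03 and pabpc1a -0.15.

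Genes outside the set whose log2 CPM over the 6 libraries was most like that of a member were taken from 4942 candidates by Pearson's r. For nr4a1 they were azin1a (0.989) and ldb1a (0.988), and for dusp1 ehbp1l1b and the chaperone gene hspa8 (both 0.998). For ier5 they were pabpc1a (0.991) and gadd45ga (0.99), for ier2 mvb12a (0.992) and ginm1 (0.989), and for btg2 bada (0.995) and gpx1a (0.993). For egr2b they were shc1 (0.994), an adaptor of the ERK cascade, and inpp5d (0.992). Between 59 and 258 candidates had an r above 0.9 with a given member, so that these are the highest of many.

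Markers of other cells in the gates were checked beside these results, and beside the 13% higher and 9.4% lower over all tested genes. Of 3 tested fibroblast markers 2 rose, lum and dcn, while col1a1b did not pass (0.18) and col1a1a had at most 12 counts. The fibroblast list summed to 8.77 to 27.1 CPM in SP and 4.4 to 5.31 CPM in nonSP. Of 4 tested muscle markers 2 rose, neb and ttna, while acta1a stood at -0.13 and did not pass. The muscle list summed to 35.8 to 73.8 CPM in SP and 3.73 to 30.2 CPM in nonSP, and the creatine kinase gene ckma had at most 2 counts. Of 5 tested myeloid markers 1 rose, mpx, and 1 fell, cebpa. The myeloid list summed to 474, 20.7 and 22.8 CPM in SP and 259, 28.5 and 26.3 CPM in nonSP. With TMM scaling this sum was thus higher in SP in tumour 1404 only. Under library totals 3 tested myeloid markers were higher and 1 lower, beside 50.8% and 1.76% of all tested genes, so this reading depends on the scaling. The genes lyz and mpeg1.1 had at most 24 and 7 counts.

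Of 7 tested B lineage markers 1 rose and 1 fell, with sums of 177, 288 and 101 CPM in SP and 209.8, 554 and 148 CPM in nonSP. Of 8 tested T lineage markers 0 rose and 1 fell, with sums of 113, 905 and 75.1 CPM in SP and 152, 1156 and 159.5 CPM in nonSP. With TMM scaling the sums of both lymphoid lists and of the endothelial list were lower in SP in every tumour. Those of the fibroblast, muscle, erythroid and keratinocyte lists were higher in SP in every tumour. Under library totals 2 B lineage and 3 T lineage markers were higher and 0 lower, beside 50.8% and 1.76% of all tested genes. The medians of these lists were then 0.83 and 1.1, against 1.15 over all tested genes, so the lymphoid direction depends on the scaling. Both lymphoid lists name rag1 and rag2, so their sums are not separate readings. Erythroid markers (2 of 3 rose), keratinocyte markers (2 of 4 rose) and endothelial markers (1 of 3 fell) summed to at most 22, 34.6 and 75.9 CPM. The endothelial genes kdrl, pecam1 and tie1 had 0 counts in all nonSP libraries, so the endothelial sums there came from other genes of the list. The part of such cells in the differences of the 10 genes was not tested.

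**Figure D5:**
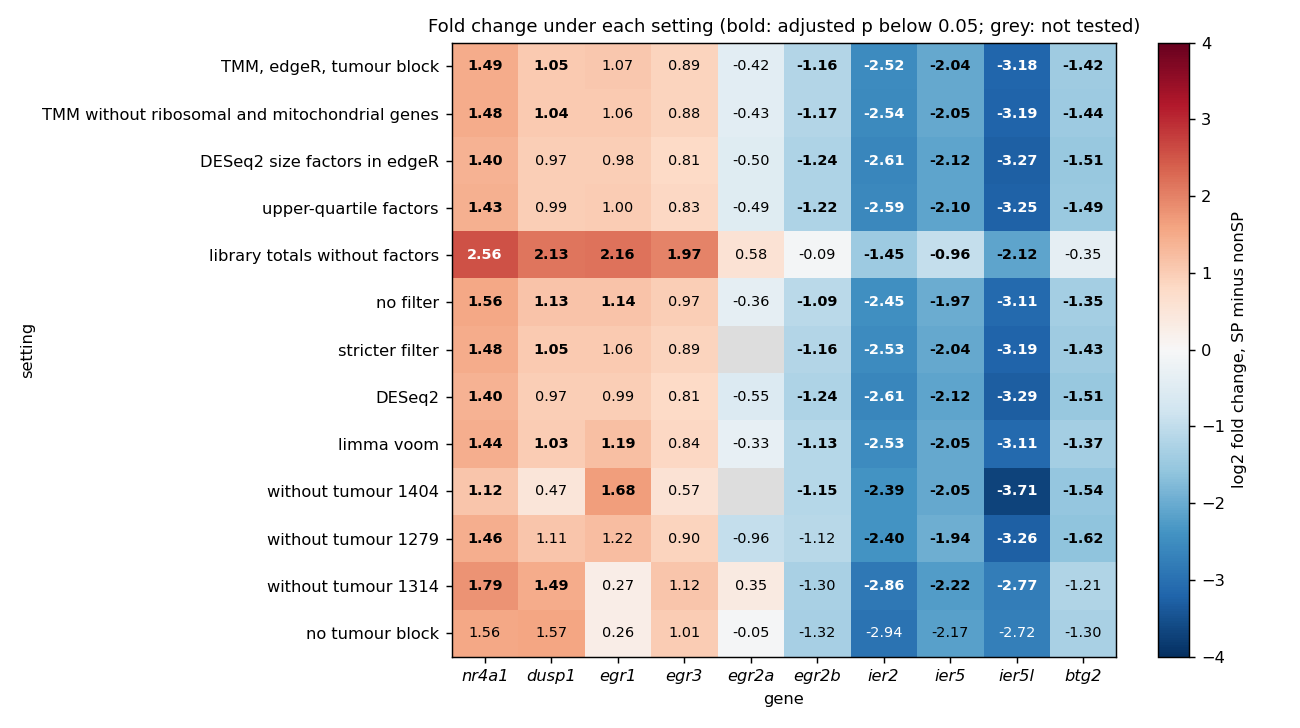
Log2 fold change of SP over nonSP for each gene (columns) under each setting (rows), in bold at an adjusted p below 0.05 and grey where the gene was not tested. The ier genes are below 0 and nr4a1 above 0 in every row, and library totals shift all columns upward, egr2b to -0.09 and btg2 to -0.35.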

How the data were processed

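Raw counts per gene symbol were deposited by the authors, 1 table per library, and the submitters' processing notes name edgeR 3.20.7, DESeq 1.30.0, featureCounts 1.28.1, Cufflinks 2.2.1 and STAR 2.5.1b, and build GRCz10. The sources used here do not give their roles, the annotation or the strandedness, so overlapping genes cannot be separated. Groups and tumour numbers come from the sample titles.

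The main test used edgeR 4.0.16 in R 4.3.3: filterByExpr (minimum count 10, minimum total 15), TMM factors, glmQLFit (robust) and glmQLFTest with tumour as a block, since the design text describes fractions of 3 tumours. Deviations from the group means correlated at 0.753, 0.839 and 0.818 within tumours and at -0.274 to -0.485 between them. The deviations of a fraction sum to 0, so positive values within tumours bring negative values between them. The SE is the log2 fold change over the square root of F and rests largely on a spread shared by all genes (23.2 prior degrees of freedom). Log2 ratios used a prior count of 2. No libraries agreed within sampling noise. DESeq2 1.42.0 and limma 3.58.1 (voom with quality weights) were alternatives, and scripts were tested on simulated data.

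Named genes are all members, tested family relatives, and up to 4 genes of each other list with the lowest p. Further genes (fosl2, shc1, hsf1, hsp90ab1, hspe1, some cell type markers and the rows IER2 (1 of 2), EGR4 and EGR2 (3 of 3)) were added after their values were seen. Likeness took, for each member, the 2 highest correlations among tested genes other than the members, leaving out those averaging under 3 in log2 CPM. Clone and locus names, all-capital symbols, names like IER2 (1 of 2) and names ending in a dot and number were also left out. Members and lists were chosen with earlier results of these data known. Names were matched to a RefSeq gene table for 10 of 10 members, ier2 by its synonym. No sequence was used here.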

Additional observations from a re-analysis of the deposited data

Results flagged for a closer look

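The tumours differed in direction for egr1, with log2 ratios of SP over nonSP of -0.32 in tumour 1404 and 2.77 in tumour 1314, which lie 3.09 apart. The same held for egr2a, whose ratios of 1 in tumour 1279 and -1.90 in tumour 1314 lie 2.9 apart and rest on 2 to 17 counts in those libraries. With 1 pair per tumour, these differences between tumours were not tested.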

How the results depend on the processing

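Among the 10 members, 95 of the refitted values kept their direction and side of the threshold, 16 lost the call, 5 gained it and 2 reversed (egr2a, 0.58 with library totals, and -0.96 to 0.35 with a tumour left out). With library totals 4 members were higher and 3 lower, with 8015 genes higher and 277 lower. With DESeq2's size factors in edgeR, and in DESeq2, 1 member was higher. Leaving out a tumour gave 1 to 2 members higher and 3 to 5 lower, and 1141 to 1396 genes higher and 667 to 1685 lower. The stricter filter gave 1048 genes higher and 904 lower, as fewer genes were tested. Without the tumour as replicate block edgeR called 0 members higher, 0 lower, 0 genes higher and 0 lower, with 687 and 564 genes at an unadjusted p below 0.05. Among other named genes 471 values kept direction and call, 73 lost the call, 30 gained it and 9 reversed. These were btg3 (-0.06 to 0.72), dusp4 (-0.30 to 1.77) and tob1a (-0.20 to 0.84) with a tumour left out, lowest without 1404, dusp16 (-0.46 to 0.15 with a tumour left out, 1.01 with library totals and 0 without a filter), and dusp6 (0.81) and spry1 (0.06) with library totals. The cause of these changes was not tested. Depth limits egr2a and ier5l, which fall to 2 and 10 counts.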
